A study of Mus musculus with 10 samples.

Results

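Gene expression was compared between mouse embryonic stem cell (ESC) lines that lack thymine-DNA glycosylase (Tdg-/-, n = 4 lines) and lines that keep 1 intact Tdg allele (Tdg+/-, n = 3 lines). Lines were chosen by their genotype label alone, and these 7 were part of a series of 10 lines. The other 3 were wt (Tdg+/+) and are given, for some genes, only as levels beside the groups compared. Rose, fell, higher and lower describe Tdg-/- lines relative to Tdg+/- lines, not relative to wt. All lines were male, carried the strain label C57BL/6 and grew on gelatin in serum-free 2i medium with LIF, which holds ESCs in a naive state. The study rederived them from blastocysts of Tdg+/- parents on inactivated mouse feeder cells, which were removed before RNA was taken. Each line was 1 library, and no label says which mating it came from. A p value here therefore covers line-to-line spread, part of which may be technical. Stranded total RNA libraries depleted of ribosomal RNA gave 31786749 to 39916039 reads in genes per line. A gene was tested if at least 1 of the 7 lines held at least 20 reads, which left 13962 of 35427 genes, 1125 of them on chromosome 11. Genes of chromosome 11 are reported apart, because earlier results of these lines showed that the Tdg+/- lines expressed that chromosome at a higher level as a whole.

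TDG is a DNA glycosylase of the base excision repair pathway. It removes thymine and uracil mispaired with guanine, and it cuts out 5-formylcytosine and 5-carboxylcytosine, the bases that TET enzymes make from 5-methylcytosine. In this way it completes active demethylation, mostly at CpG sites. Mouse embryos without TDG die during development, whereas ESCs without it can be grown, so that ESC lines are commonly used to study its loss.

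Tdg expression followed the genotype labels in every line. Levels are given as CPM, the reads of a gene relative to all reads of the line, scaled by trimmed mean of M values (TMM) factors. In Tdg+/- lines 1 to 3 Tdg stood at 40.4, 41.9 and 45.9 CPM, whereas Tdg-/- lines 1 to 4 held 7.76, 10.6, 10.3 and 8.50 CPM, against 86.5, 91.2 and 93.2 CPM in the wt lines. The groups did not overlap, the mean of the Tdg-/- lines was 21.7% of that of the Tdg+/- lines, and the log2 fold change was -2.20 ± 0.14 (SE, adjusted p = 0.000431).

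The estimated reads left in the Tdg-/- lines were spread unevenly over the annotated Tdg transcripts. The coding transcript Tdg-201 held 850 to 1280 reads in the Tdg+/- lines and 94.6 to 135.2 in the Tdg-/- lines. The coding transcript Tdg-210 held 29.8 to 45.6 reads in the Tdg+/- lines and at most 0.867 in a Tdg-/- line. The retained-intron transcript Tdg-207 held 151.0 to 169.6 against 66.5 to 108.8 reads, and the noncoding transcript Tdg-203 held 22.02 to 42.44 against 29.2 to 39.7 reads, so that the groups overlapped for Tdg-203 only among these 4. Of the 31-base words of Tdg transcripts, 37.1% also occur in its pseudogene Tdg-ps, so that some of these reads cannot be assigned with certainty. Which exons the null allele lacks was not given in the sources used here.

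Tdg-/- line 1 stood apart from the other 3 Tdg-/- lines. In a principal component analysis of the 7 lines, component 1 held 55.5% of the variance. The Tdg+/- lines scored -20.4, -25.6 and -31.7 on it, Tdg-/- lines 2 to 4 scored 33.1, 24 and 26.1, and Tdg-/- line 1 scored -5.41. Across 9628 genes that averaged 5 CPM or more, the Pearson correlation of log2 CPM was 0.982 to 0.990 among Tdg-/- lines 2 to 4, 0.953 to 0.968 between them and line 1, 0.959 to 0.968 between line 1 and the Tdg+/- lines, and 0.970 to 0.980 between line 1 and the wt lines. These correlations run across genes, which are not independent replicates. Tdg itself was as low in Tdg-/- line 1 as in the other Tdg-/- lines. Results are therefore given with all 7 lines, and the main counts also without this line.

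**Figure D1:**
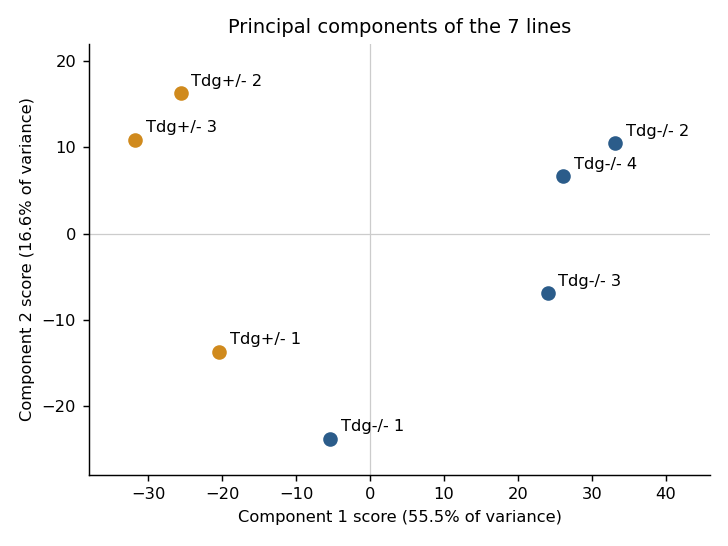
Scores of the 3 Tdg+/- and 4 Tdg-/- lines on the principal components 1 (x axis, 55.5% of the variance) and 2 (y axis, 16.6%) of log2 CPM; each point is 1 line. Tdg-/- line 1 lies at -5.41 on component 1, between the Tdg+/- lines on the left and Tdg-/- lines 2 to 4 on the right.

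All 7 lines expressed ESC marker genes and had little signal from markers of other cell types. The summed level of 8 ESC markers was 6380 to 7400 CPM in the Tdg+/- lines and 6830 to 8260 CPM in the Tdg-/- lines, and no marker of any list was at 0 in all 7 lines. This sum hides members that moved in opposite directions. Dppa5a held 109801 to 118736 reads in the Tdg+/- lines and 152233 to 186758 in Tdg-/- lines 2 to 4, and Tfcp2l1 held 26606 to 40715 against 16772 to 18513. In Tdg-/- lines 2 to 4, Pou5f1 and Zfp42 were also above all Tdg+/- lines, and Esrrb and Klf4 also below them. Markers of primitive endoderm summed to 2.07 to 3.13 against 2.35 to 3.41 CPM over 6 genes, those of trophectoderm to 7.35 to 10.3 against 8.53 to 10.5 CPM over 4 genes, and those of mesoderm to 2.01 to 4.73 against 0.969 to 3.73 CPM over 3 genes. Feeder fibroblast markers, 8 genes that include 3 collagen genes, summed to 32.2, 5.43 and 49.2 CPM for Tdg+/- lines 1 to 3, whereas Tdg-/- lines 1 to 4 had 34.1, 22.4, 27.2 and 11.3 CPM, so that Tdg+/- line 2 had the lowest value. In bulk samples, fewer cells of a type and less RNA per cell cannot be told apart.

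Between the genotypes, 1261 of the 13962 genes tested (9.03%) passed an adjusted p of 0.05. Of all genes tested, 491 (3.52%) were higher and 770 (5.51%) lower in Tdg-/- lines. Away from chromosome 11 the directions were balanced, with 488 genes higher (3.8% of 12837) and 481 lower (3.75%). On chromosome 11, 3 genes were higher and 289 lower. The median size of a called change was 0.71 on the log2 scale, and 212 called genes changed by a log2 of at least 1. In 1221 of the called genes (96.8%) no Tdg-/- line fell within the Tdg+/- lines or the reverse, as in 3426 of all genes tested (24.5%), and 4914 genes (35.2%) had an unadjusted p under 0.05.

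Tdg-/- line 1 was the Tdg-/- line nearest to the Tdg+/- lines in 958 of the 1261 called genes (76.0%). Without it 5659 genes passed, including all 1261, each in the same direction. Leaving out Tdg+/- line 2 or 3, or Tdg-/- line 2, 3 or 4, left 12 to 22 genes, whereas 1535 passed without Tdg+/- line 1. The smallest adjusted p apart from that of Tdg was 0.01196.

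A set of 7 genes passed with all 7 lines and in each of the 7 fits that left out 1 line, namely Tdg, Prag1, Lars2, Zdhhc15, Gm3055, Gm15920 and Gm10093, the last 4 of which were named after their values were seen. Zdhhc15, which encodes a palmitoyltransferase, was at 10.2, 10.4 and 11.2 CPM in the Tdg+/- lines and at 22.8, 22.2, 21.3 and 22.2 CPM in the Tdg-/- lines, with wt lines at 16.7 to 18.7 CPM. Its log2 fold change was 1.06 ± 0.11 (SE, adjusted p = 0.01196). Each group of lines covered a narrow range, with wt lines between the other groups. Lars2, the mitochondrial leucyl-tRNA synthetase, was at 83.7, 65.8 and 62.0 CPM in the Tdg+/- lines and at 31.6, 22.04, 26.9 and 25.9 CPM in the Tdg-/- lines, a log2 fold change of -1.40 ± 0.15 (SE, adjusted p = 0.01196). Prag1, a pseudokinase that regulates RhoA signaling, was at 6.23, 5.46 and 5.78 CPM against 1.96, 1.60, 2.11 and 1.87 CPM (log2 fold change -1.62 ± 0.17 SE). In Tdg-/- line 1 Prag1 lay within the other Tdg-/- lines and Lars2 was the highest of them, below all Tdg+/- lines, while the wt lines ranged from 27.1 to 119.3 CPM for Lars2 and from 3.08 to 5.78 CPM for Prag1.

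A further 3 of these 7 genes have close copies in the genome, and their values are uncertain. Gm3055 lies 0.859 Mb from Tdg on chromosome 10, and 93.8% of its 31-base words also occur in transcripts of the zinc finger gene Zfp781. It was at 14.6, 13.6 and 7.45 CPM in the Tdg+/- lines, at 1.90, 2.40, 2.95 and 3.18 CPM in the Tdg-/- lines and at 19.4 to 36.9 CPM in the wt lines, with no overlap between the genotypes. Gm10093 is a processed pseudogene with 86.1% of its words in Hdac1, and was at 8.15 to 20.02 against 59.4 to 100.9 CPM. Gm15920, a processed pseudogene with 84.9% of its words in Ndufa12, was at 10.3 to 12.5 against 24.9 to 37.5 CPM. The wt lines differed among themselves in Gm15920, from 0.251 to 12.7 CPM.

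**Figure D2:**
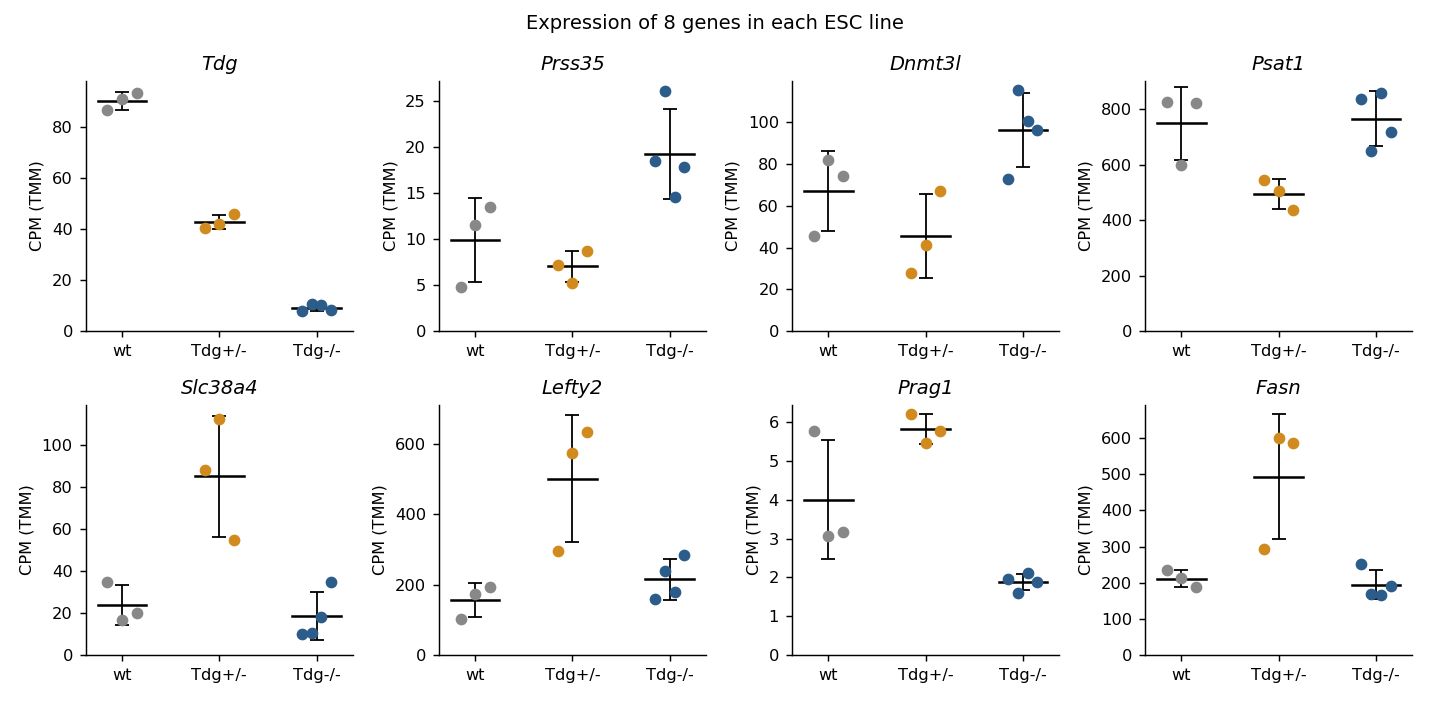
CPM (y axis, TMM-scaled) of 8 genes in wt, Tdg+/- and Tdg-/- lines; each point is 1 line, the bar is the group mean and the whiskers are 1 SD. The Tdg+/- and Tdg-/- lines do not overlap for any of the 8 genes, and for Slc38a4, Lefty2 and Fasn the Tdg+/- mean lies above that of both other groups.

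Among genes lower in the Tdg-/- lines away from chromosome 11, Obox6 and Slc38a4 changed most among those named by the rule given with the methods. Slc38a4, an amino acid transporter gene that is imprinted in mice, was at 88.0, 112.5 and 55.1 CPM in the Tdg+/- lines and at 10.2, 10.7, 18.3 and 34.7 CPM in the Tdg-/- lines. The log2 fold change was -2.21 ± 0.41 (SE, adjusted p = 0.02574). The wt lines were at 34.6, 16.8 and 19.9 CPM, within the range of the Tdg-/- lines, so that the Tdg+/- lines were the ones set apart. Obox6, a member of the oocyte-specific homeobox family, was at 8.56, 15 and 4.72 CPM against 0.78, 0.99, 0.84 and 4.67 CPM. For Obox6 the groups were separated by 4.72 against 4.67 CPM only, and wt lines were at 0.61 to 1.43 CPM.

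Other genes of varied roles also fell. Col2a1, the chain of type II collagen, was at 3.05 to 5.52 CPM in the Tdg+/- lines and at 1.05 to 2.14 CPM in the Tdg-/- lines (log2 fold change -1.67). Inpp5d, the lipid phosphatase SHIP1, was at 51.6, 75.6 and 54.8 CPM against 31.3, 18.8, 15.1 and 30.1 CPM (-1.35 ± 0.26 SE, adjusted p = 0.02574). The wt lines were at 1.015 to 1.38 CPM for Col2a1 and at 19.6 to 27.0 CPM for Inpp5d. In both genes Tdg-/- line 1 was the highest or among the 2 highest Tdg-/- lines. Tmem63a, a mechanosensitive ion channel, differed in this respect, at 6.62 to 10.3 CPM in the Tdg+/- lines and at 3.06 to 3.44 CPM in all Tdg-/- lines (-1.38 ± 0.18 SE, adjusted p = 0.01898), and the wt lines were at 3.11 to 3.42 CPM. Selenoi, an enzyme of phosphatidylethanolamine synthesis, fell by 1.57, and Chit1, a chitinase, fell by 1.91 on the log2 scale from 2.90 to 3.82 CPM. Nrg4, a ligand of the ErbB receptors, fell by 1.51, Txlnb by 1.60 and Map6d1 by 1.37. Parp10, a mono-ADP-ribosyltransferase, fell by 1.56 but did not pass once the dependence on transcript length described further on was removed (adjusted p = 0.06814).

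Among genes that rose in the Tdg-/- lines away from chromosome 11 were Zmat4, Tent5a, Emp1 and Prss35. Zmat4, a zinc finger gene, was at 7.45, 3.40 and 8.94 CPM in the Tdg+/- lines and at 16.4, 29.5, 27.3 and 20.1 CPM in the Tdg-/- lines (log2 fold change 1.82 ± 0.32 SE, adjusted p = 0.02535). Prss35, a gene of the serine protease family, was at 7.15, 5.28 and 8.68 CPM against 18.5, 26.1, 14.6 and 17.8 CPM (1.45 ± 0.23 SE, adjusted p = 0.02356). For Prss35 the Tdg-/- lines were also above the wt lines, which were at 4.80 to 13.5 CPM. Anxa1, an annexin known to be induced by glucocorticoids, was at 11.1 to 15.6 against 18.9 to 43.3 CPM (1.31), with wt lines at 21.4 to 28.0 CPM. Pkia, an inhibitor of protein kinase A, rose by 1.36, Syndig1 by 1.34 and Plekhb1 by 1.42 on the log2 scale. Rpl39l, a paralog of a ribosomal protein gene, Hemk1, Gulp1 and Pramel30 also passed, but none of these 4 did once the length trend was removed (adjusted p = 0.0998, 0.05128, 0.05303 and 0.08828, in that order).

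In several of the genes that rose, Tdg+/- line 2 had the lowest level of the 7 lines, as it had for the feeder fibroblast markers. Emp1, an epithelial membrane protein gene, was at 13.2, 3.63 and 12.9 CPM in the Tdg+/- lines and at 33.8, 33.9, 28.9 and 29.2 CPM in the Tdg-/- lines (log2 fold change 1.67 ± 0.36 SE, adjusted p = 0.03228). F3, which encodes tissue factor, was at 2.25, 0.86 and 1.45 against 3.33 to 4.87 CPM (1.36). Tent5a, a poly(A) polymerase, Gulp1, an adaptor for engulfment, and Tmem47 also had their lowest value in this line. The feeder fibroblast markers of the Tdg-/- lines, 11.3 to 34.1 CPM, lay within the range of the Tdg+/- lines. Their part in these differences was not tested.

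Among genes of cytosine modification, Dnmt3l and Idh1 rose. Of 18 tested genes that write, oxidize or remove cytosine methylation, these 2 rose and none fell (11.1%, close to the 9.03% called over all genes tested), with a list median of -0.13 against -0.017 over all genes tested. Dnmt3l, the catalytically inactive partner of the de novo methyltransferases, was at 27.8, 41.1 and 67.2 CPM in the Tdg+/- lines and at 72.7, 115.2, 100.6 and 96.1 CPM in the Tdg-/- lines (log2 fold change 1.08 ± 0.27 SE, adjusted p = 0.04356). The groups were close, since Tdg+/- line 3 reached 67.2 and Tdg-/- line 1 was at 72.7 CPM. The wt lines, at 45.3, 81.7 and 74.4 CPM, overlapped both groups. Dnmt3l lies 4.57 Mb from Tdg on chromosome 10. Idh1, which makes the 2-oxoglutarate that TET enzymes need, rose by 0.50. With the length trend removed, Dppa3, which protects methylation in the zygote, was also called, at a log2 fold change of -1.07 (adjusted p = 0.0328, against 0.0506 without this step). Tet1, an oxidase of 5-methylcytosine, was at 107.1 to 150.0 against 87.4 to 114.5 CPM (log2 difference -0.35, adjusted p = 0.1165), Tet2 differed by -0.12 (adjusted p = 0.7046) and Tet3, at 1.44 to 2.29 against 0.77 to 1.27 CPM, by -0.86 (adjusted p = 0.0614). Dnmt1, the maintenance methyltransferase, was at 207.6 to 283.0 CPM in the Tdg+/- lines, at 235.6 CPM in Tdg-/- line 1 and at 133.3 to 153.9 CPM in Tdg-/- lines 2 to 4 (adjusted p = 0.07443).

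The other DNA glycosylases that act on uracil or thymine did not pass the test. Mbd4, which like TDG removes thymine from T:G mispairs, was at 34.7 to 40.1 CPM in the Tdg+/- lines and at 34.2 to 39.5 CPM in the Tdg-/- lines (log2 difference 0.00 ± 0.11 SE). Smug1 was at 19.8 to 22.5 against 24.1 to 25.2 CPM (0.23, adjusted p = 0.1604) and Ung at 98.4 to 111.6 against 109.3 to 129.5 CPM (0.17, adjusted p = 0.2742). Of 25 tested genes of base excision repair, Ogg1, the 8-oxoguanine glycosylase, was the 1 that rose and none fell (4.0%, against 9.03% over all genes). It was at 13.7 to 14.9 against 17.2 to 21.2 CPM (0.45, adjusted p = 0.0493), and did not pass with the length trend removed (adjusted p = 0.05283).

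In each of 3 lists of pluripotency genes 1 gene rose. The shares called were 10% of general, 5.56% of naive and 8.33% of primed factors, which lie near the 9.03% over all genes. Among 10 general pluripotency factors, Dppa4 rose, from 54.1 to 57.1 CPM in the Tdg+/- lines to 64.2, 111.6, 88.5 and 93.7 CPM in the Tdg-/- lines (log2 fold change 0.68, adjusted p = 0.04179). Pou5f1 was at 1067 to 1151 CPM in the Tdg+/- lines, at 1142 CPM in Tdg-/- line 1 and at 1565 to 1893 CPM in Tdg-/- lines 2 to 4 (adjusted p = 0.07956). Nanog differed by 0.14 (adjusted p = 0.3407) and Sox2 by -0.13 (adjusted p = 0.4434). Of 18 naive factors, Fbxo15 rose by 0.56 and none fell, with a list median of -0.13. At an unadjusted p under 0.05, 3 naive factors were higher and 6 lower, where 4914 of all 13962 genes (35.2%) reached this in either direction. Without Tdg-/- line 1, 3 passed as higher and 8 as lower, where 5659 of 13939 genes passed. With the length trend removed, 1 was called higher and 0 lower, and the list median was -0.0078. Of 12 tested genes of primed pluripotency, Otx2, a homeobox gene of formative and primed cells, rose from 8.81 to 17.4 CPM to 21.2 to 37.5 CPM (1.09 ± 0.27 SE, adjusted p = 0.04102), while its wt lines covered 7.29 to 44.0 CPM.

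Lineage genes were mostly at or below the limit for testing. None of 7 tested trophectoderm genes and none of 5 tested mesoderm genes passed, and of 23 listed genes of the 2-cell-like state only Eif1a was tested (log2 difference 0.17, adjusted p = 0.2776). At an unadjusted p under 0.05, and by DESeq2 after adjustment, these 3 lists also held 0 genes. Other settings called 1 trophectoderm gene each, namely Eomes, a T-box factor, higher with the length trend removed (log2 fold change 0.56, adjusted p = 0.0328), and Tead4, a partner of YAP, lower without Tdg-/- line 1 (-0.457, adjusted p = 0.0252). Lamb1, a laminin chain made by primitive endoderm, fell by 0.66, and Nes, an intermediate filament gene of neural progenitors, fell by 0.95, from 15.2 to 19.1 CPM to 14.3, 6.09, 8.07 and 7.46 CPM. The neural markers Sox1, Pax6 and Nes together summed to 17.6 to 21.3 against 7.0 to 16.9 CPM, and most of these reads were from Nes. Sox1 held 22 to 49 reads in the Tdg+/- lines and 37 to 66 in the Tdg-/- lines, and Pax6 held 4 to 17 against 3 to 20. The groups thus overlapped for Sox1 and Pax6, and the lower sum came from Nes. Both Lamb1 and Nes lost the call with the length trend removed (adjusted p = 0.1107 and 0.06448).

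Ddx4 rose and Mov10 fell among members of the germline list, and Plagl1 fell among imprinted genes. The germline list was meant for genes that promoter methylation silences in somatic cells, but whether each member is such a gene was not checked. Of its 37 genes 28 were tested here, and the list summed to 451 to 654 CPM in the Tdg+/- lines. The list as a whole was thus not silent in these cells, although Mov10 alone gave 82.9 to 117.0 CPM of this sum. The share called was 7.14% for the germline list and 3.03% for the imprinted list, against 9.03% over all genes. Ddx4, an RNA helicase of germ cells, was at 6.80 to 7.93 CPM in the Tdg+/- lines and at 9.09 to 11.6 CPM in the Tdg-/- lines (log2 fold change 0.57, adjusted p = 0.04348). Mov10, a helicase that restrains retrotransposons, was at 82.9 to 117.0 CPM against 76.4, 49.2, 44.4 and 44.7 CPM (-0.94 ± 0.21 SE, adjusted p = 0.0326), so that Tdg-/- line 1 again lay next to the Tdg+/- lines. Of 33 tested imprinted genes, a list that did not hold Slc38a4, Plagl1 fell, at 10.3 to 13.5 against 4.50 to 8.30 CPM (-1.01 ± 0.22 SE, adjusted p = 0.03145).

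In Nodal signaling, Lefty2 and Acvr2b fell. These were 2 of 21 tested genes (9.52%, close to the 9.03% called over all genes), and none rose. Lefty2, a secreted inhibitor and target of Nodal, was at 295.2, 573.8 and 634.1 CPM in the Tdg+/- lines and at 157.9, 239.0, 178.7 and 284.9 CPM in the Tdg-/- lines (log2 fold change -1.22 ± 0.27 SE, adjusted p = 0.03422). The gap between the groups was narrow, from 284.9 to 295.2 CPM, and the wt lines were at 101.6 to 192.6 CPM. Acvr2b, a type II receptor of the pathway, fell by 0.82. Nodal itself was at 70.6 to 106.8 against 87.2 to 128.6 CPM (log2 difference 0.34, adjusted p = 0.18).

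Of 17 tested Wnt feedback and target genes, 5 fell and none rose (29.4%, against 5.51% of all genes tested called lower), and all 5 lie on chromosome 11, where 289 of 1125 tested genes were called lower. Axin2, a scaffold that limits beta-catenin, was at 35.1, 50.4 and 56.6 CPM in the Tdg+/- lines and at 24.2, 27.2, 20.5 and 32.7 CPM in the Tdg-/- lines (log2 fold change -0.86 ± 0.20 SE, adjusted p = 0.03512). Znrf3, which clears Wnt receptors, fell by 0.89, Tcf7, a transcription factor of the pathway, by 0.83, and Notum, which inactivates Wnt ligands, by 1.01. Kremen1, a receptor for Dickkopf proteins, fell by 0.74 and lost the call with the length trend removed (adjusted p = 0.05834). None of the 11 tested list members on other chromosomes passed, and their median was -0.31.

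Genes of serine synthesis and of the unfolded protein response rose in part. Of 39 tested targets of ATF4 and of the unfolded protein response, 5 rose and 1 fell (15.4% called, against 9.03% over all genes, and list median 0.27). Psat1, an aminotransferase of serine synthesis, was at 545.0, 506.4 and 438.5 CPM in the Tdg+/- lines and at 838.6, 649.6, 859.2 and 719.4 CPM in the Tdg-/- lines (log2 fold change 0.63 ± 0.14 SE, adjusted p = 0.03228). Phgdh, the enzyme of the step that starts this synthesis, was at 162.2 to 189.8 against 226.4 to 255.7 CPM (0.48, adjusted p = 0.03422). Both were as high in Tdg-/- line 1 as in the others, and the wt lines, at 598.4 to 828.7 CPM for Psat1, overlapped the Tdg-/- lines. Sars, the seryl-tRNA synthetase, rose by 0.44, and the chaperone genes Dnajb9 and Calr rose by 0.65 and 0.47, though Calr lost the call with the length trend removed (adjusted p = 0.09346). Xbp1, a transcription factor of the unfolded protein response on chromosome 11, fell by 0.79. Among 16 heat shock genes, Hspe1, the mitochondrial cochaperone, rose by 0.69 and Chordc1 by 0.57 (12.5% called, against 9.03% over all genes).

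Keratin and junction genes fell in part. Of 24 tested genes of keratins and epithelial junctions 6 fell and none rose (25%, against 5.51% of all genes tested called lower, and list median -0.39). Dsp, which anchors keratin at desmosomes, was at 13.9, 10.1 and 10 CPM in the Tdg+/- lines and at 7.06, 3.81, 4.42 and 3.89 CPM in the Tdg-/- lines (log2 fold change -1.24 ± 0.24 SE, adjusted p = 0.02574). Pkp2, a desmosomal plaque gene, fell by 0.70, Krt8 by 0.55 and Cldn6, a tight junction gene, by 0.91. Krt42 and Jup, which lie on chromosome 11, fell by 0.92 and 1.11. Krt42 was at 74.2 to 84.6 against 36.6 to 44.0 CPM, with little spread within each group. Of 13 tested genes of MHC class I presentation 3 fell, namely Tapbp, a peptide loading factor (-0.85 ± 0.15 SE, adjusted p = 0.02408), H2-K1 (-0.82) and H2-T22 (-0.81), and none rose (23.1%, against the same 5.51%). The H2 genes share sequence with each other, so that their separate values are uncertain.

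Metabolic lists held calls in both directions. In cholesterol synthesis, 3 of 28 genes rose and 1 fell (14.3% called, against 9.03% over all genes). Msmo1, a sterol oxidase, was at 199.3 to 233.6 CPM in the Tdg+/- lines and at 299.5 to 385.6 CPM in the Tdg-/- lines (log2 fold change 0.71 ± 0.12 SE, adjusted p = 0.02408), Hmgcs1 rose by 0.67 and Idi1 by 0.54, the last not with the length trend removed (adjusted p = 0.1195). Srebf1, a transcription factor of lipid synthesis on chromosome 11, was at 80.8 to 117.2 against 40.6 to 61.2 CPM (-1.04 ± 0.17 SE). In glycolysis and glucose uptake, Pgk1 and the hypoxia-responsive gene Bnip3 rose by 0.50 and 1.02, while Gapdh and Pfkm fell by 0.69 and 0.52, out of 24 genes (16.7% called). Gapdh was at 1406, 1656 and 2144 against 1311, 1058, 948.4 and 985.3 CPM. Pfkm lost the call with the length trend removed (adjusted p = 0.06175).

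Several mitochondrially encoded genes fell in the Tdg-/- lines. Of 13 tested, 5 fell and none rose (38.5%, against 5.51% of all genes tested called lower, and list median -0.52). The gene mt-Atp6, a subunit of ATP synthase, was at 925.5, 621.6 and 526.0 CPM in the Tdg+/- lines and at 353.1, 307.0, 318.3 and 366.2 CPM in the Tdg-/- lines (log2 fold change -1.04 ± 0.18 SE, adjusted p = 0.02408). The genes mt-Atp8, mt-Co2, mt-Cytb and mt-Nd1 fell by 1.15, 0.52, 0.60 and 0.46. All mitochondrial genes together took 1.277% to 1.577% of reads in the Tdg+/- lines and 1.031% to 1.215% in the Tdg-/- lines. The wt lines took 0.899%, 1.601% and 1.678%, so that lines of 1 genotype spanned the range of both groups. The nuclear genome holds copies of mitochondrial sequence, and mt-Atp8 and mt-Atp6 overlap, so that single values are uncertain.

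The study asked how stress hormone receptor activation and TDG bear on chromatin in sperm, so that genes of the glucocorticoid receptor pathway were listed. Nr3c1, which encodes this receptor, was at 7.96, 7.97 and 10.53 CPM in the Tdg+/- lines and at 11.1, 8.49, 9.60 and 8.77 CPM in the Tdg-/- lines (log2 difference 0.10 ± 0.16 SE, adjusted p = 0.6661). Of 31 tested glucocorticoid-induced genes, Anxa1 rose and Cdkn1a and Mt2 fell (9.68%, close to the 9.03% over all genes, and list median -0.068). Cdkn1a, a cell cycle inhibitor that is also a p53 target, was at 58.5 to 65.3 against 41.8 to 45.0 CPM (-0.51 ± 0.10 SE, adjusted p = 0.02662). Mt2, a metallothionein, was at 219.6 to 256.7 against 136.9 to 195.9 CPM (-0.53). Fkbp5, a widely used glucocorticoid target, was at 129.5 to 148.0 CPM in the Tdg+/- lines, at 134.0 CPM in Tdg-/- line 1 and at 88.0 to 100.3 CPM in the others (adjusted p = 0.08006). Of 16 steroid receptor, chaperone and cofactor genes 2 were called, both lower (12.5%, against 5.51% of all genes tested called lower, and list median -0.34). At an unadjusted p under 0.05, 1 was higher and 8 lower, where 4914 of all 13962 genes (35.2%) reached this in either direction. With the length trend removed, 1 was called higher and 1 lower, and the list median was -0.14. The corepressor Ncor1 on chromosome 11 fell by 0.72 and the acetyltransferase Crebbp by 0.53, the latter not with the length trend removed (adjusted p = 0.2039).

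Among the remaining lists, 3 of 29 p53 targets fell and none rose (10.3%, against 5.51% of all genes tested called lower). They were Trp53 itself, on chromosome 11, by 0.87, Cdkn1a, and Zmat3 by 0.46, which lost the call with the length trend removed (adjusted p = 0.5111). Of 31 Polycomb and trithorax genes 5 were called (16.1%, against 9.03% over all genes). Rbbp4, a histone chaperone, rose from 643.9 to 706.9 CPM to 832.5 to 1149 CPM (log2 fold change 0.60) and Eed, a core subunit of a Polycomb repressive complex, rose by 0.58 but not with the length trend removed (adjusted p = 0.09732). Ezh1 and Pcgf2, both on chromosome 11, fell by 0.73 and 0.74, and Kmt2b by 0.51 but not with the length trend removed (adjusted p = 0.1495). Of 25 targets of YAP and TEAD 3 were called, against 1261 of all 13962 genes tested (9.03%). F3 and Fstl1 rose and Amot fell by 0.97, the last not with the length trend removed (adjusted p = 0.079). Of 20 interferon response genes Rnf213 fell, of 17 retinoic acid response genes Rara fell by 0.84, and both lie on chromosome 11. These were 5.0% and 5.88% of their lists, against 5.51% of all genes tested called lower. Rara did not pass with the length trend removed (adjusted p = 0.07531). Fn1, the gene of fibronectin, was the 1 that fell among 26 matrix genes, by 0.86 (3.85%, against the same 5.51%). None of 54 tested replication-dependent histone genes passed (list median 0.21). At an unadjusted p under 0.05, 12 were higher and 1 lower, against 2273 and 2092 of the 12837 genes off chromosome 11. DESeq2 called 9 histone genes higher, against 1622 of the same 12837 genes. With the length trend removed the list median was -0.0090 and 1 histone gene was called higher.

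**Figure D3:**
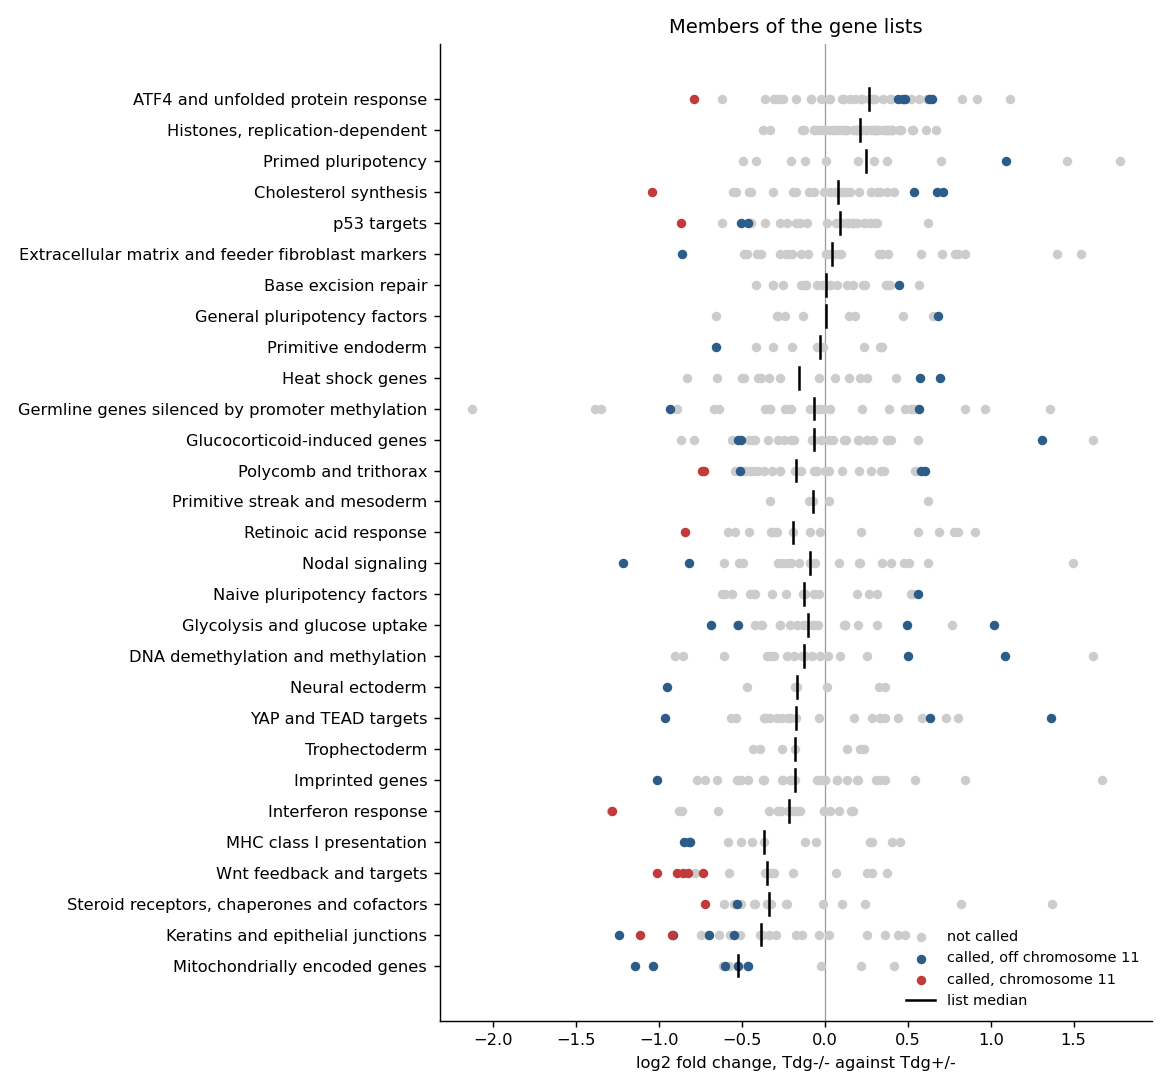
The log2 fold change of each tested list member between Tdg-/- and Tdg+/- lines (x axis), for the 29 lists with at least 5 tested genes (y axis); grey points did not pass, blue points passed off chromosome 11, red points passed on chromosome 11, and the black bar is the list median. List medians run from -0.52 for mitochondrially encoded genes to 0.27 for ATF4 and unfolded protein response genes, and all called Wnt genes are on chromosome 11.

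Chromosome 11 was lower in the Tdg-/- lines along its whole length. Of its 1125 tested genes, 26.0% were called, against 7.55% of the genes on other chromosomes, and 900 (80.0%) had a lower estimate in the Tdg-/- lines at any p. The median log2 fold change was -0.38 on chromosome 11 and 0.013 elsewhere. For each line, the median level was also taken over the 789 genes of the chromosome that averaged 5 CPM or more, relative to each gene's median over the 10 lines. It was 0.196, 0.421 and 0.264 in Tdg+/- lines 1 to 3 and -0.0333, -0.100, -0.173 and 0.0576 in Tdg-/- lines 1 to 4, with wt lines at -0.0846 to -0.126. The Tdg+/- lines were all above the Tdg-/- and wt lines, and Tdg-/- line 1 lay within the other Tdg-/- lines. The group means differed by -0.356. Since the chromosome was set apart for this pattern, the value describes these lines and no test is given.

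The difference was present in each of 8 blocks of consecutive genes along the chromosome. Block medians of the log2 fold change ran from -0.272 to -0.509, with 20 to 41 called lower in blocks of 98 or 99 genes. In all but block 5, each Tdg+/- line lay above each Tdg-/- line. In block 5, Tdg+/- line 3 was at 0.11 and Tdg-/- line 4 at 0.111. No other autosome and not the X chromosome had a median log2 fold change beyond -0.061 on the lower or 0.13 on the higher side.

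**Figure D4:**
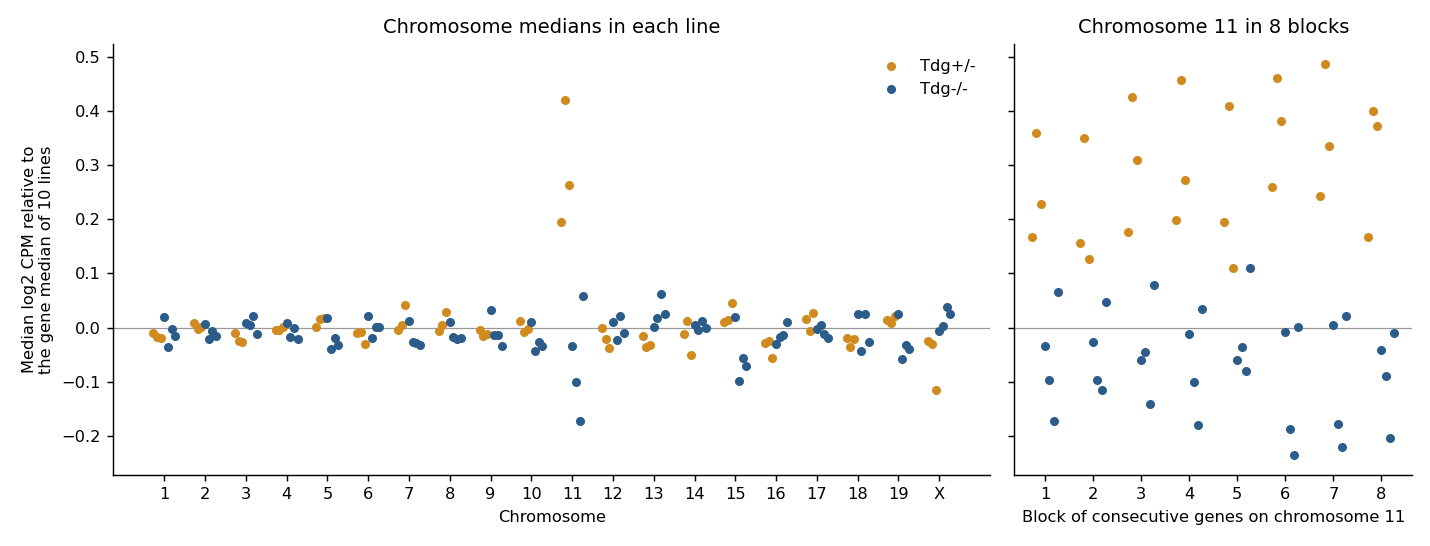
Median log2 CPM of genes averaging 5 CPM or more, relative to each gene's median over all 10 lines (y axis), in each Tdg+/- and Tdg-/- line, by chromosome (left) and in 8 blocks of consecutive genes of chromosome 11 (right); each point is 1 line. On chromosome 11 the Tdg+/- lines lie at 0.196 to 0.421 and the Tdg-/- lines at -0.173 to 0.0576.

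Fasn, Rnf213, Adam19 and Ttyh2 were among the genes that fell on chromosome 11. Fasn, the fatty acid synthase, was at 293.8, 601.1 and 586.4 CPM in the Tdg+/- lines and at 252.0, 168.5, 165.7 and 190.0 CPM in the Tdg-/- lines (log2 fold change -1.35 ± 0.24 SE, adjusted p = 0.02558). The wt lines were at 188.0 to 234.0 CPM, so that the Tdg+/- lines, and among them lines 2 and 3, stood apart. Rnf213, a large ubiquitin ligase that interferon induces, was at 57.4, 61.0 and 55.9 against 31.7, 18.8, 22.5 and 22.3 CPM (-1.28 ± 0.17 SE, adjusted p = 0.01898). Adam19, a metalloprotease, was at 60.6 to 96.8 against 25.6 to 39.7 CPM (-1.28), and Ttyh2, a membrane protein of the tweety family, at 51.8 to 68.4 against 18.9 to 33.5 CPM (-1.33). Sarm1, an NAD hydrolase, fell by 1.55, Rapgefl1 by 1.63, Tmem94 by 1.30 and Zfp750 by 1.29. The 3 genes that rose on chromosome 11 were Hspd1-ps3, a processed pseudogene named after its values were seen (33.0 to 65.0 against 76.7 to 99.5 CPM), Tnfsf13, the cytokine APRIL, which rose from 0.50 to 0.87 CPM to 1.39 to 2.23 CPM (1.54 ± 0.29 SE), and Crk, an adaptor of receptor kinases, at 165.1 to 178.9 against 199.0, 262.2, 257.7 and 261.1 CPM (0.52 ± 0.12 SE, adjusted p = 0.03953).

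The direction of the differences depended on transcript length. Protein-coding genes off chromosome 11 were divided into 5 equal classes by their effective length, the length of transcript from which a read can start. From the shortest to the longest class the median log2 fold change was 0.25, 0.10, -0.0061, -0.13 and -0.29. In the shortest class, 139 genes were called higher and 28 lower, and in the longest class 26 were called higher and 209 lower. By line, the longest class lay at -0.262, -0.191 and -0.253 in Tdg-/- lines 2 to 4, at 0.0756 in Tdg-/- line 1 and at 0.0464, 0.052 and 0.202 in the Tdg+/- lines. The shortest class lay at 0.239, 0.18 and 0.185 in Tdg-/- lines 2 to 4, at -0.0631 in line 1 and at 0.0, -0.0587 and -0.181 in the Tdg+/- lines, which is the opposite order. In the longest class Tdg-/- line 1 thus lay within the Tdg+/- lines, and wt lines were at 0.00913 to 0.0585 in the longest class. Whether the cells or the libraries differed cannot be told apart with 1 library per line.

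When the trend of each line on transcript length was removed, 1294 genes passed (9.27%), of which 896 were among the 1261 genes called without this step, that is 71.1% of the one list and 69.2% of the other. The directions then varied less with length, from 56 higher and 84 lower in the shortest class to 119 higher and 68 lower in the longest. On chromosome 11, 282 genes were then lower and 5 higher. Of the 107 named genes that passed other than Tdg, 89 kept the call and 18 lost it, and the 18 are marked beside their values. Calls were also gained, and the list members called went from 24 higher and 42 lower to 30 higher and 46 lower. Besides Dppa3 and Eomes, genes that gained a call included the pluripotency factors Sall4 (-0.59) and Etv4 (1.57) and the germline genes Piwil2 (0.80) and Cyct (-1.73). They also included the imprinted gene Igf2 (2.05) and the histone gene H1f3 (0.62), each given as its log2 fold change. The keratin and junction list went from 6 to 8 genes lower, and the mitochondrially encoded list from 5 to 7. The interferon list went from 1 to 5 genes lower, with Ifi27, Ifi35, Ifitm1 and Ifitm3 added at -1.12, -1.02, -0.58 and -0.55. Of the 20 tested genes of this list, 7 lie on chromosome 11.

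**Figure D5:**
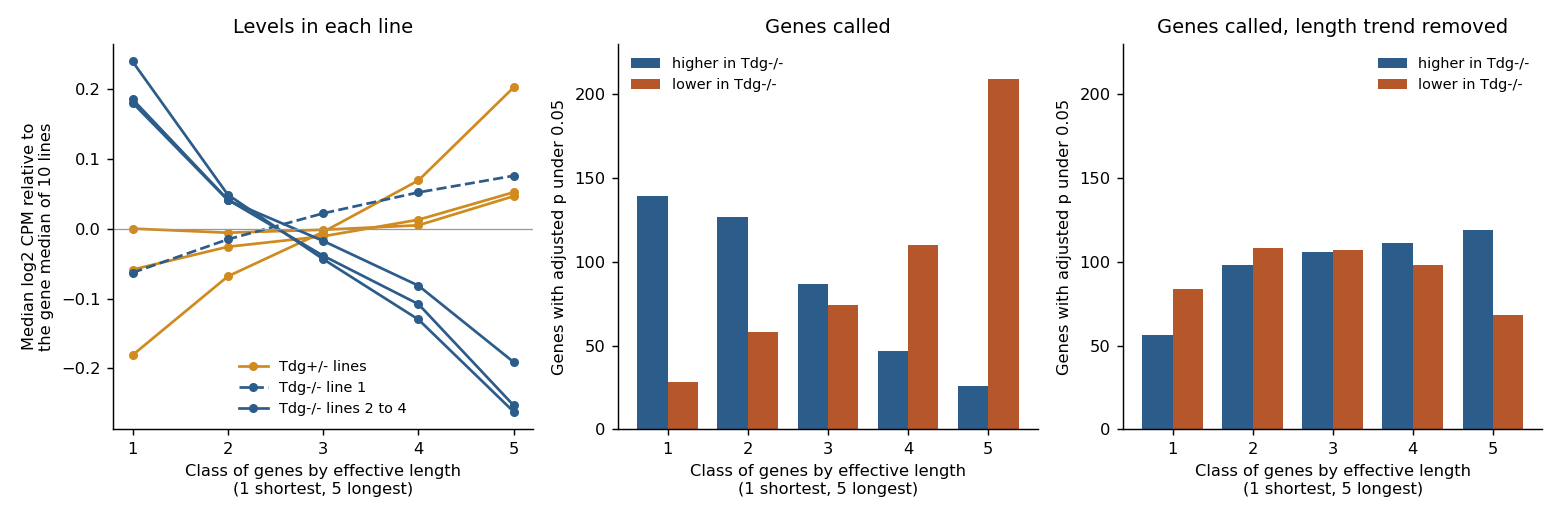
Left, median log2 CPM relative to each gene's median over the 10 lines, by class of effective length for protein-coding genes off chromosome 11, in the 3 Tdg+/- lines and the 4 Tdg-/- lines (each curve is 1 line); middle and right, numbers of genes called higher or lower in Tdg-/- lines in each class, without and with removal of the length trend. Tdg-/- lines 2 to 4 run from 0.18 or above in the shortest class to -0.191 or below in the longest, and Tdg-/- line 1 does not.

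Because TDG acts mostly at CpG sites, the CpG content of promoters was described for the called genes. Promoter windows of RefSeq (GRCm38.p6, from 250 bases before to 50 after a start site, 1 window a gene) were matched by symbol for 10220 of the tested genes, which held a median of 21 CpG. Genes called higher off chromosome 11 (355 windows) held a median of 19, and 45.9% of them had at least 20 CpG. Genes called lower off chromosome 11 (376 windows) held a median of 22.5 and 59.6% had at least 20, against a median of 21 and 54.5% in genes not called. On chromosome 11 the median was 23 in genes called lower (68.4% with at least 20) and 21 in those not called (54.0%). These are counts of the dinucleotide CG in 1 window, the groups also differ in transcript length, and no test was made.

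The promoters of 4 genes described above are shown to set windows of changed genes below the median of 21 CpG beside one above it, with each CpG in capitals and the sequence written 5′ to 3′ along the strand of the gene (RefSeq, GRCm38.p6). Dnmt3l rose and Slc38a4 and Prss35 changed in opposite directions, and their windows hold 6, 5 and 12 CpG. Fasn, which fell with chromosome 11, has 39 in its window. A window with at most 5 CpG, such as that of Slc38a4, occurred in 8.9% of all matched genes and a window with at least 20, such as that of Fasn, in 54.6%.
Dnmt3l, chr10:78042037-78042336, plus strand: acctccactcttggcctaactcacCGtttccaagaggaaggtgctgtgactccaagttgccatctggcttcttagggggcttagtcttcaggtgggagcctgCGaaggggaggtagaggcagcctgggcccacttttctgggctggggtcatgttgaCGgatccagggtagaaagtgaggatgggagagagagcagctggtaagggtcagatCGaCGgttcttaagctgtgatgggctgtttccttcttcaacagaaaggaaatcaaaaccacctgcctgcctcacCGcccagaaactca
Slc38a4, chr15:97055907-97056206, minus strand: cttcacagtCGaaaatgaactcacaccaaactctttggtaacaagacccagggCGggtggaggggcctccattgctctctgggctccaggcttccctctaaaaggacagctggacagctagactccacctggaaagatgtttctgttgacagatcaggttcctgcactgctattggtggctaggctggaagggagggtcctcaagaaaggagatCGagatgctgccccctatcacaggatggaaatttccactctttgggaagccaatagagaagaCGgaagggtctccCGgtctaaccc
Prss35, chr9:86743383-86743682, plus strand: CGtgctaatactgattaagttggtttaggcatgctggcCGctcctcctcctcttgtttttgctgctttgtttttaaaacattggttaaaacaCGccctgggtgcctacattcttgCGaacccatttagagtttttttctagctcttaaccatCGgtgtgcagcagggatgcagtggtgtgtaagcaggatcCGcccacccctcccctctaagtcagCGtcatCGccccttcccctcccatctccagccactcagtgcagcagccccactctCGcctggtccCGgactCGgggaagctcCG
Fasn, chr11:120824498-120824797, minus strand: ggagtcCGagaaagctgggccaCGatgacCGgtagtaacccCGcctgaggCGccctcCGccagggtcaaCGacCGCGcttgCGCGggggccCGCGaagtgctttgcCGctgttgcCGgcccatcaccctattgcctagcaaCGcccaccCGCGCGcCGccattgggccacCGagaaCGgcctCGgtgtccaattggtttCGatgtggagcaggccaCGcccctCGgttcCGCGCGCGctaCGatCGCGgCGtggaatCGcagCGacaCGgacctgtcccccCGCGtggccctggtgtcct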

How the data were processed

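RNA of 10 mouse ESC lines was sequenced by the study, and 7 lines were compared here. The authors quantified reads with Salmon 0.8.1 (genome build label GRCm39), and the deposited files give, per transcript, estimated counts, TPM and an effective length. The TPM values were not used as a measurement. The estimated counts of 115153 of 116357 transcripts (98.97%) were summed per gene with GENCODE M21 identifiers and rounded, and 383 symbols were updated to RefSeq. Read numbers set the precision, and p values cover the spread between lines.

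Genes that reached 20 reads in any of the 7 lines were fitted with edgeR 4.0.16 (R 4.3.3, TMM factors, quasi-likelihood test, no covariate) over 3 Tdg+/- and 4 Tdg-/- lines. Adjusted p is by Benjamini-Hochberg over all genes tested, the SE is the log2 fold change divided by the square root of F, and a gene passed at an adjusted p under 0.05. CPM are TMM-scaled except for the marker sums, which use all reads in genes. The length trend was removed by a loess curve (span 0.5) per line, a step chosen after seeing the data. The fit was tested on simulated data.

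Members and gene lists were chosen with earlier results of these data known. Named genes were Tdg, up to 15 called genes per direction off chromosome 11 and up to 8 on it with the largest change (averaging 1 CPM or more, named in full, groups not overlapping), at most 4 called members of each list, and 14 fixed genes. Some genes that met this rule are not reported here. A further 14 were named after their values were seen: Zdhhc15, Gm15920, Gm10093, Gm3055, Hspd1-ps3, Notum, Sars, Calr, Krt8, Cldn6, mt-Nd1, Eed, Nodal and Fkbp5, as were Tead4 and list members that gained a call with the length trend removed. Replicate numbers of Tdg+/- and Tdg-/- lines come from the labels and were not taken as pairs, because same-numbered lines did not deviate together. A permutation test planned for the level of chromosome 11 is not given, since the chromosome was set apart for that difference. Alternatives were RLE factors, TMM without chromosome 11, other filters, DESeq2 1.42.0, all 10 lines, an effective length offset, 3 surrogate variables (sva 3.50.0), a replicate block and leaving out each line.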

Additional observations from a re-analysis of the deposited data

Results flagged for a closer look

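In 8 of 131 results, 1 of the 4 Tdg-/- lines stood apart from the other 3, measured as the gap to its nearest neighbour divided by the range of the 4 lines. Chance alone marks about 1 in 20 groups. Tdg-/- line 1 stood apart for Crk (0.929), Mov10 (0.851) and Gm10093 (0.855), in each case towards the Tdg+/- lines. Tdg-/- line 3 stood apart for Otx2 (0.835), where it was the highest, and Krt42 (0.928), where it was the lowest. Tdg-/- line 4 stood apart for Obox6 (0.946), at 4.67 CPM against 0.78 to 0.99 CPM in the other 3 Tdg-/- lines, for Ddx4 (0.853), where it was the lowest, and for Smug1 (0.836), where it was the highest. The groups of 3 Tdg+/- lines were too small for this measure.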

How the results depend on the processing

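Main counts below are genes higher and lower off chromosome 11 (488 and 481), higher and lower on it (3 and 289), and list members higher and lower (24 and 42). DESeq2 gave 1622 and 1202, 9 and 411 on chromosome 11, and 67 and 83 list members. An effective length offset gave 184 and 146, 1 and 133, and 7 and 24, and 3 surrogate variables gave 2715 and 2491, 32 and 555, and 121 and 163. Fitting all 10 lines gave 770 lower off chromosome 11, and no filter and removal of the length trend each gave 5 higher on it. With the length trend removed and Tdg-/- line 1 left out, both chosen after seeing the data, the counts were 1884 and 1898 off chromosome 11, 22 and 388 on it, and 80 and 96 list members. In that fit Sox2 turned from -0.13 to 0.25 (adjusted p = 0.0434), the 1 direction that reversed with a call.

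Leaving out 1 line gave 5 to 2525 and 5 to 2628 genes off chromosome 11, 0 to 34 and 1 to 472 on it, and 0 to 95 and 0 to 149 list members. The most were called without Tdg-/- line 1, and 12 to 22 genes in all without Tdg+/- line 2 or 3 or Tdg-/- line 2, 3 or 4, where 3327 to 3646 genes still had an unadjusted p under 0.05. The cause was not tested. Same-numbered lines were not shown to be pairs (correlations of their deviations 0.0075, 0.062 and -0.16), and a replicate block left 3 and 3 genes off chromosome 11, 0 and 0 on it, and 0 and 0 list members, with 3005 genes at an unadjusted p under 0.05.

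Tdg passed in all 18 alternative fits, from -2.27 to -2.12 when 1 line was left out and at -1.26 with the effective length offset. The chromosome 11 difference was -0.405 to -0.292 with 1 line left out. Of 107 other called genes named, 106 kept the call with RLE factors, 107 with DESeq2, 49 with the effective length offset and 1 with the block.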

Other observations

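Ribosomal protein genes, a group chosen after seeing the data, were mostly higher in the Tdg-/- lines. Of 83 tested, 10 rose and 0 fell, 79 had an estimate above 0, and the median log2 fold change was 0.45. Over all 13962 genes tested, 491 (3.52%) were called higher and 770 (5.51%) lower. In the shortest class of protein-coding genes off chromosome 11, 139 of 2349 were called higher and 28 lower. Their share of reads was 12.2% to 13.12% in the Tdg+/- lines, 12.44% in Tdg-/- line 1 and 15.77% to 17.21% in Tdg-/- lines 2 to 4, with wt lines at 12.41% to 13.18%. These transcripts are short, with a median effective length of 391.0 bases, and with the length trend removed the median was 0.16, with 3 higher and 4 lower. Of 948 processed pseudogenes tested, 44 were higher and 2 lower in the Tdg-/- lines, against the same 491 and 770 of all 13962 genes tested.

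Around Tdg on chromosome 10, 17 of 163 other genes tested within 5 Mb were called (10.4%), 8 higher and 9 lower. Within 10 Mb, 22 of 218 were called (10.1%), 8 higher and 14 lower. More than 10 Mb away on this chromosome, 28 of 428 were called (6.54%). The share called was 7.55% of all genes off chromosome 11 and 9.03% of all genes tested.

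Genes of the Y chromosome differed between lines of the same genotype. Ddx3y, an RNA helicase gene, was at 87.0, 30.8 and 115.4 CPM in the Tdg+/- lines and at 123.0, 80.0, 76.0 and 56.3 CPM in the Tdg-/- lines, and Uty, a histone demethylase paralog, at 46.8, 17.6 and 61.4 against 62.0, 50.7, 47.5 and 39.9 CPM. Tdg+/- line 2 was the lowest in both.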
